A study of Mus musculus with 4 samples.

Results

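The 10 genes that neurons switch on with activity and that code for proteins of the synapse or of signaling, not for transcription factors, and that are described here are Arc, Homer1, Nptx1, Nptx2, Ptgs2, Plk2, Plk3, Rgs2, Nrn1 and Inhba. They were taken by name from the deposited table, which holds 28193 genes. All 10 were found, each on a single row, and all 10 passed the minimum of more than 5 counts per library, as did 22338 genes in all.

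fosTRAP-seq sequences RNA bound to the ribosomes of neurons that expressed c-Fos in a chosen time window. Male C57BL/6J mice of 3 to 5 months received viral vectors in CA1 of the dorsal hippocampus, 1 with a tamoxifen-dependent Cre driven by the c-Fos promoter and 1 with Cre-dependent Rpl22 carrying an HA tag (RiboTag), and the sample labels name the genotype cFos-Cre:Ribotag. All mice, in both groups, were sleep deprived for 5 h on day 0 with 4-hydroxytamoxifen at ZT 2, so neurons were tagged during sleep deprivation in both groups. The tag follows the c-Fos promoter and the drug, so it can also take neurons active for other reasons in that window, and the study describes some background tagging. On day 7 the SD group was sleep deprived for 5 h again by gentle handling, the non-sleep-deprived (NSD) group was left undisturbed, and CA1 was dissected at ZT 5. Ribosomes were pulled down with an antibody to HA from CA1 pooled from 5 mice, which gave n = 2 libraries per group from 10 mice per group, and the standard deviations (s.d.) below describe the spread between pools, not between mice. The labels place 1 NSD and 1 SD library in batch 1 and 1 of each in batch 2. The comparison asks what a second sleep deprivation changes in the ribosome-bound RNA of neurons tagged by the first.

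Immediate early genes are transcribed within minutes of strong synaptic input, because their promoters are already bound by factors, such as CREB, that calcium and kinase signals activate. Those described here act directly on the cell. They remove or anchor glutamate receptors, are secreted onto synapses, phosphorylate synaptic proteins, limit G-protein signaling or make lipid messengers. In the hippocampus, Arc and the short form of Homer1 are among the genes most used to mark recently active neurons, and both are known to rise with waking.

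The libraries held 153511705 to 195910235 estimated counts, and the 10 genes together took 0.116% to 0.141% of them. Values are given in CPM, which sets each count against its library's total after TMM scaling (a correction for differences in RNA composition). A gene is called higher or lower when the Benjamini-Hochberg adjusted p of edgeR's quasi-likelihood test, over all 22338 genes, is under 0.05 and the fold change is over 1.2. Library NSD 2 had the highest values of the genes of the tagging system. For Fos and for Rpl22, both batch 2 libraries were above both batch 1 libraries. Fos was counted at 271 CPM in NSD 1, 513 CPM in NSD 2, 336 CPM in SD 1 and 375 CPM in SD 2, and Rpl22 (endogenous and tagged, which the counts do not separate) at 628, 1045, 610 and 809 CPM in the same order. Neither was called (adjusted p = 0.827 for Fos and 0.651 for Rpl22 by edgeR). Markers of CA1 pyramidal neurons were abundant, with Camk2a at 4090 to 4379 CPM and Wfs1 at 279 to 441 CPM, but oligodendrocyte Mbp at 880 to 1073 CPM and interneuron Gad1 at 311 to 332 CPM were present as well, and none of the 40 cell type markers examined was at 0. In such bulk RNA, fewer cells of a type and less RNA per cell cannot be told apart.

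The effector genes did not move together. Arc rose 1.88-fold after SD and was the only one of the 10 called, in a comparison where 0.77% of all genes tested were called higher and 2.33% lower. With the batch as a block in the fit, Homer1 was also called higher and Nptx2 was called lower, so that 2 of 10 were higher against a background of 2.99% and 1 of 10 was lower against 8.47%. DESeq2 made the same 3 calls, with backgrounds of 3.12% higher and 6.03% lower. The other 7 genes were called by none of these fits, and the median log2 fold change of the 10 was -0.03, beside -0.02 over all genes tested. For 4 of the 10, both SD libraries had higher values than both NSD libraries (Arc, Homer1, Plk3 and Inhba), as for 22% of all genes, and for 3 of the 10 lower values (Nptx2, Plk2 and Nrn1), as for 27.5% of all genes. All 10 genes code for proteins, and among the 15551 protein-coding genes tested the balance of these shares was the reverse. There 0.952% were called higher and 0.54% lower without the block, 3.77% and 3.29% with it, and the SD libraries had the higher values for 26.5% and the lower for 20%. The libraries of the groups overlapped for Nptx1, Ptgs2 and Rgs2.

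**Figure D1:**
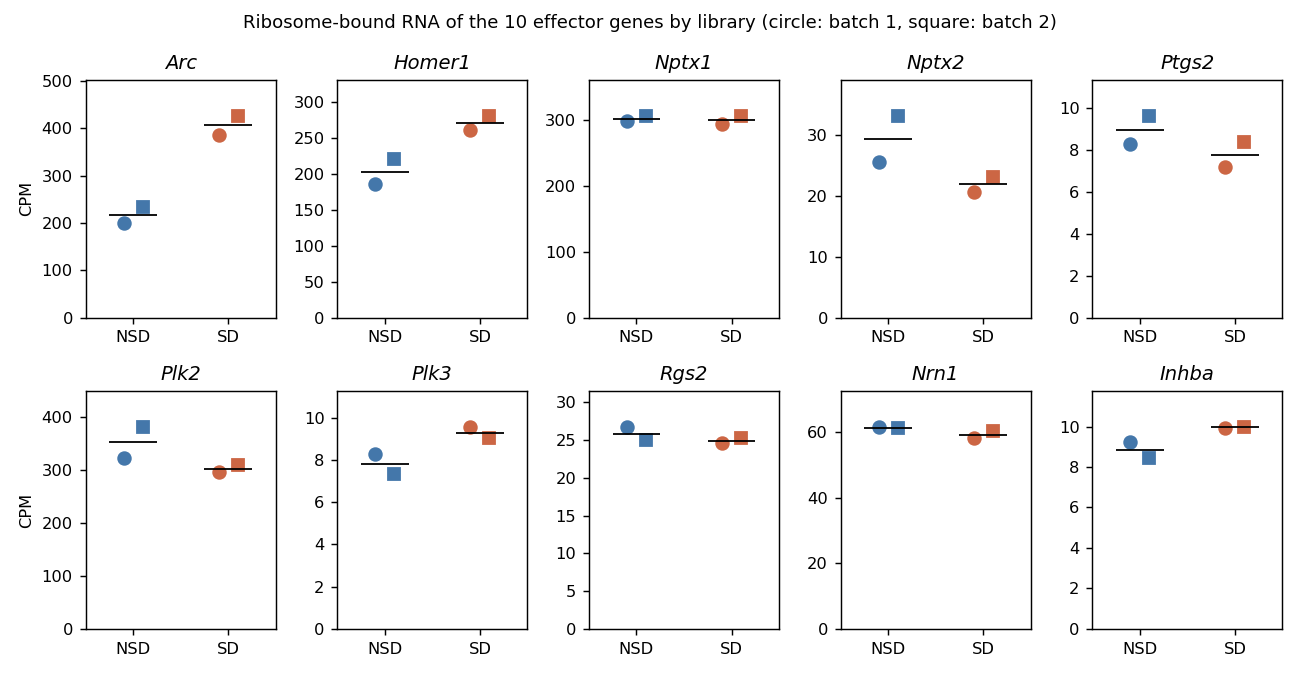
Ribosome-bound RNA of the 10 effector genes in each library, in CPM on axes that start at 0. Circles are batch 1, squares batch 2, and lines the group means (n = 2 libraries each). Arc is the gene with the widest gap, with 199 and 233 CPM in NSD against 386 and 426 CPM in SD, while Nptx1 lies between 294 and 306 CPM in all 4 libraries.

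Many activity-induced promoters carry a cAMP response element (CRE, TGACGTCA), where CREB binds, or its shorter form TGACG. RefSeq promoter sequences, from 250 bases before a RefSeq start to 50 after it, were matched to 6 of the 10 genes, with 7 promoters since Homer1 has 2. No promoter sequence was at hand for Arc, Nptx1, Nptx2 or Nrn1, so nothing was searched for these genes. These starts need not be the first base of the gene as given below, and both Homer1 starts lie inside its annotated span. In GENCODE M39 the windows of Plk2 and Ptgs2 lie wholly (300 of 300 bases) in exons of transcripts that start further upstream. They were searched on both strands. The CRE was found in 1 of the 7 promoters, that of Plk2, and in 1.79% of 32851 mouse promoters of the same length. TGACG, which is also part of every CRE, was found in 5 of the 7, namely those of Plk2, Plk3, Rgs2, Ptgs2 and the upstream one of Homer1, and in 20.8% of all promoters. Those 5 had 59.3% to 70.0% G and C bases, the promoter of Inhba 47.7% and the other one of Homer1 44.7%. The share of all promoters was not matched for this content. The AP-1 site (TGANTCA, in 7.81% of all promoters), the CArG box bound by SRF (1.63%) and the EGR box (GCGTGGGCG, 0.612%) were found in none of the 7 windows. Stretches with a match in Homer1, Plk2, Plk3, Ptgs2 and Rgs2 are shown because they let promoters with the same motif be set beside the unlike values of their genes, and not every match is shown. Each is 30 bases, 5′ to 3′ on the strand of the gene, the match is in capitals (CGTCA is TGACG on the other strand), and positions count from 1 at the RefSeq start and back from -1 before it. The sequences are from the RefSeq table for GRCm38.p6, and their GRCm39 positions come from an exact match that was unique on its chromosome.
Homer1 from -60 to -31, chr13:93440205-93440234, plus strand: aagcTGACGtgagcggagggTGACGtatgt
Homer1 from -26 to 4, chr13:93440239-93440268, plus strand: agaggagcgcgcTGACGttgctatttaaag
Plk2 from -73 to -44, chr13:110531505-110531534, plus strand: agcgctcgccgTGACGTCAcgaggccccgc
Plk2 from 10 to 39, chr13:110531587-110531616, plus strand: agcgaagcaggaCGTCAgactagagagtag
Plk3 from -144 to -115, chr4:116991275-116991304, minus strand: agatctttcaggTGACGtaaggcggagcaa
Ptgs2 from 2 to 31, chr1:149975783-149975812, plus strand: gagtcaccactaCGTCAcgtggagtccgct
Rgs2 from -197 to -168, chr1:143880055-143880084, minus strand: atgcggcgcctaCGTCAacagcgccctcgc
Rgs2 from -79 to -50, chr1:143879937-143879966, minus strand: ttggggcgtggcTGACGcctccaggtcccg
Homer1 had 3 matches within the 60 bases before this RefSeq start. Plk2 alone had the full palindrome. A match of letters is a description and does not show that a factor binds there. The values of these 5 genes, given below, include a log2 fold change of 0.42 for Homer1 and one of -0.22 for Plk2. None of the 5 was called without the block. Homer1 was called with it, and Plk2, Plk3, Ptgs2 and Rgs2 in no fit.

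Arc (ENSMUSG00000022602, chromosome 15, 74540932 to 74544419, minus strand, GRCm39) codes for a protein that drives the removal of AMPA receptors from the synapse and forms capsids that carry RNA. It was counted at 199 CPM in NSD 1, 233 CPM in NSD 2, 386 CPM in SD 1 and 426 CPM in SD 2. Both SD libraries were well above both NSD libraries, and within each pair the batch 2 library was the higher. The means were 216 ± 24.1 CPM in NSD and 406 ± 28.3 CPM in SD (s.d., n = 2), and the log2 fold change was 0.91 ± 0.10 (s.e.), with a 95% interval of 0.68 to 1.14 and an edgeR adjusted p of 0.0328. Within batch 1 the log2 difference of SD from NSD was 0.96 and within batch 2 it was 0.87. Its log2 fold change ranked 79 from the highest among the 15551 protein-coding genes tested. The size of the change held in each alternative fit, from 0.83 without NSD 1 to 1.03 without NSD 2, but its adjusted p was 0.0628 when edgeR's own filter, which keeps more genes, replaced the count minimum.

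The 11 genes whose products bind or act with Arc and that were set beside it include endophilin 3 (Sh3gl3) and dynamin 2 (Dnm2) of the endocytic machinery, the AMPA receptor partner stargazin (Cacng2), CaMKIIβ (Camk2b) and the scaffold PSD-95 (Dlg4). None of the 11 was called, with or without the block or by DESeq2, and 0 had an unadjusted p under 0.05 by edgeR. Their median log2 fold change was 0.03 and they ranged from -0.20 to 0.13. Those with the smallest p were Wasf1, the WAVE1 actin regulator, at 310 and 342 CPM in NSD against 270 and 296 CPM in SD (log2 fold change -0.20, edgeR adjusted p = 0.264), and Dnm2 at 27.3 and 24.2 CPM against 22.4 and 23.4 CPM (-0.17, 0.335). Both were lower in both SD libraries.

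The 3 genes closest to Arc in their pattern over the 4 libraries by the Euclidean distance of log2 CPM centred on each gene's mean among 8634 protein-coding genes with a mean of at least 10 CPM, were Nts, the neuropeptide neurotensin (distance 0.21), Dusp5, a phosphatase of ERK (0.23), and Zfp966, a zinc finger gene (0.25). Nts was counted at 7.76 and 11 CPM in NSD and 15.7 and 18.3 CPM in SD. Dusp5 was counted at 22.8 and 26.8 CPM in NSD and 40.7 and 40.3 CPM in SD. Zfp966 was counted at 7.83 and 7.75 CPM in NSD and 13.6 and 13.2 CPM in SD. In all 3 the SD libraries were above the NSD libraries, which follows from their choice by nearness to Arc. NSD 2 was above NSD 1 in Nts and Dusp5, as in Arc, but not in Zfp966. The distance describes 4 values per gene and is not a test.

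Homer1 (ENSMUSG00000007617, chromosome 13, 93436143 to 93541637, plus strand) codes for a scaffold that ties metabotropic glutamate receptors to Shank proteins and to IP3 receptors in the postsynaptic density. Its short product, Homer1a, is the activity-induced form and uncouples these links. The deposited value is for the whole gene and does not separate Homer1a from the long forms. Homer1 was counted at 185 CPM in NSD 1, 220 CPM in NSD 2, 260 CPM in SD 1 and 280 CPM in SD 2. Again the SD libraries were above the NSD libraries, with a smaller gap than for Arc. The means were 202 ± 24.7 CPM in NSD and 270 ± 14.4 CPM in SD (s.d., n = 2), a 1.34-fold difference with a 95% interval of 1.14 to 1.56. The log2 fold change of 0.42 ± 0.10 (s.e.) had an edgeR adjusted p of 0.061 without the block and of 0.00115 with it, and 0.000234 by DESeq2. It was called when NSD 2, SD 1 or SD 2 was left out, and not when NSD 1 was left out (0.33, edgeR adjusted p = 0.135). Within batches the log2 differences were 0.49 and 0.35.

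The genes around Homer1 differed less. None of 10 was called by edgeR, with or without the block, or by DESeq2, and 0 had an unadjusted p under 0.05, with a median log2 fold change of 0.08. The paralog Homer2 was at 297 and 282 CPM in NSD and at 318 and 304 CPM in SD (log2 fold change 0.11, edgeR adjusted p = 0.542). Homer3 was far lower, at 7.51 and 7.99 CPM in NSD and 7.63 and 5.9 CPM in SD. The ratio of Homer1 to Homer2 counts was 0.622 in NSD 1, 0.78 in NSD 2, 0.817 in SD 1 and 0.921 in SD 2. It was highest in the SD libraries, with a log2 difference of 0.32 between the group means (0.15 without NSD 1 and 0.48 without NSD 2). The scaffolds Shank2 (0.20) and Shank3 (0.17), which Homer proteins bind, had the smallest p of the list, with edgeR adjusted p-values of 0.421 and 0.379.

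The neuronal pentraxins are secreted proteins that cluster AMPA receptors from outside the cell. Nptx2, also called Narp, is the activity-induced one, and Nptx1 is held at a steadier level. Nptx2 (ENSMUSG00000059991, chromosome 5, 144482712 to 144494288, plus strand) was counted at 25.6 CPM in NSD 1, 33.1 CPM in NSD 2, 20.7 CPM in SD 1 and 23.1 CPM in SD 2. The SD libraries were both below the NSD libraries, the direction opposite to that of Arc. The means were 29.4 ± 5.33 CPM in NSD and 21.9 ± 1.66 CPM in SD (s.d., n = 2), and the log2 fold change was -0.42 ± 0.12 (s.e.), with a 95% interval of -0.71 to -0.14. Its edgeR adjusted p was 0.101 without the block and 0.00246 with it, and 0.0316 by DESeq2. Within batch 1 the log2 difference was -0.31 and within batch 2 it was -0.52.

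The size of the Nptx2 difference rested in part on NSD 2, the library with the highest Fos. Without NSD 2 the log2 fold change was -0.23 (edgeR adjusted p = 0.236), without NSD 1 it was -0.57 (0.0239), without SD 1 -0.35 (0.0778) and without SD 2 -0.48 (0.00782). Some markers of CA1 pyramidal neurons ran alongside. Of 7 such markers, 4 were called lower with the block (Man1a, Fibcd1, Neurod6 and Wfs1, log2 fold changes from -0.41 to -0.35), 0 were called without it (4 had an unadjusted p under 0.05 by edgeR) and 4 were called lower by DESeq2. Their summed level was 5958 CPM in NSD 1, 6306 CPM in NSD 2, 5673 CPM in SD 1 and 6119 CPM in SD 2, which overlaps between groups, since Camk2a (-0.03) and Slc17a7 (0.08) dominate it. Of all genes tested, 8.47% were called lower with the block and 6.03% by DESeq2, and of protein-coding genes 3.29% with the block. The part of these markers in the Nptx2 result was not tested.

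Nptx1 (ENSMUSG00000025582, chromosome 11, 119429545 to 119438579, minus strand) was counted at 298 CPM in NSD 1, 306 CPM in NSD 2, 294 CPM in SD 1 and 306 CPM in SD 2. The groups overlapped, and the log2 fold change was -0.01 with a 95% interval of -0.19 to 0.17 (edgeR adjusted p = 0.971). The ratio of Nptx2 to Nptx1 counts was 0.0859 in NSD 1, 0.108 in NSD 2, 0.0703 in SD 1 and 0.0753 in SD 2. The ratio was lower in both SD libraries, by a log2 difference of -0.41 between the group means, or -0.24 without NSD 2. Of 6 partners (the receptor Nptxr, the 4 AMPA receptor subunits and the protease Adam17), none was called by edgeR, with or without the block, or by DESeq2, and 0 had an unadjusted p under 0.05. Their log2 fold changes ran from -0.08 for Gria2 to 0.08 for Nptxr, with edgeR adjusted p-values of 0.734 and 0.686.

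**Figure D2:**
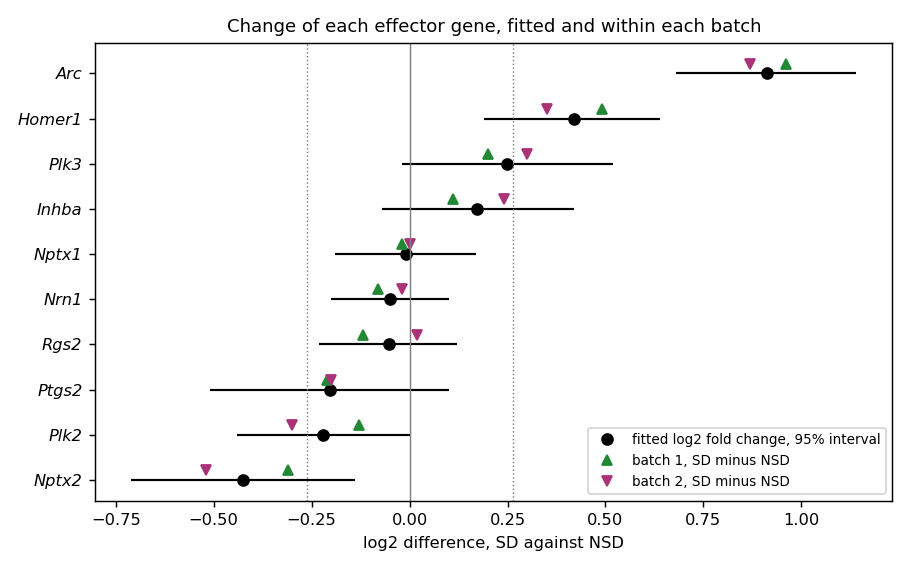
Log2 difference of SD from NSD for the 10 effector genes. Black points and bars are the edgeR estimate with its 95% interval, triangles the differences within batch 1 (up) and batch 2 (down), and dotted lines a fold change of 1.2. Arc lies at 0.91 and Nptx2 at -0.42, and 9 of the 10 genes have the same sign in both batches, all but Rgs2.

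Plk2 and Plk3 are polo-like kinases induced by activity. Plk2 phosphorylates the spine protein SPAR (Sipa1l1), by which synapses are weakened after long activity. Plk2 (ENSMUSG00000021701, chromosome 13, 110531580 to 110537378, plus strand) was counted at 324 CPM in NSD 1, 381 CPM in NSD 2, 297 CPM in SD 1 and 309 CPM in SD 2. Both SD libraries were below both NSD libraries, and the 2 SD libraries were close to each other. The log2 fold change was -0.22 ± 0.10 (s.e.), with a 95% interval of -0.44 to 0.00 and an edgeR adjusted p of 0.263, or 0.0606 with the block. Without NSD 2 it was -0.10 (edgeR adjusted p = 0.613).

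Plk3 (ENSMUSG00000028680, chromosome 4, 116985852 to 116991160, minus strand) was counted at 8.29 CPM in NSD 1, 7.33 CPM in NSD 2, 9.54 CPM in SD 1 and 9.02 CPM in SD 2. Here both SD libraries were above both NSD libraries, but the log2 fold change of 0.25 ± 0.12 (s.e.) was not called (edgeR adjusted p = 0.301) and its interval ran from -0.02 to 0.52. It was 0.16 without NSD 2 and 0.37 without NSD 1. The ratio of Plk2 to Plk3 counts was 39 in NSD 1, 52.1 in NSD 2, 31.1 in SD 1 and 34.2 in SD 2, a log2 difference of -0.47 between the group means, or -0.26 without NSD 2. Both SD libraries had the lower ratio. Of 8 other polo-like kinases and Plk2 substrates, none was called by edgeR, with or without the block, or by DESeq2, and 0 had an unadjusted p under 0.05. Plk1, the kinase of dividing cells, was under 1 CPM in every library.

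Rgs2 (ENSMUSG00000026360, chromosome 1, 143875076 to 143879899, minus strand) codes for a regulator that speeds the shut-off of G proteins, Gq above all. It was counted at 26.7 CPM in NSD 1, 25 CPM in NSD 2, 24.6 CPM in SD 1 and 25.3 CPM in SD 2. The groups overlapped and the within-batch differences had opposite signs, -0.12 in batch 1 and 0.02 in batch 2. The log2 fold change was -0.05 with a 95% interval of -0.23 to 0.12 (edgeR adjusted p = 0.794).

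Beside Rgs2 stood 15 other RGS genes and 2 genes of Gq subunits that were tested (Rgs1, Rgs13 and Rgs18 were below the count minimum). Of these 17, Rgs17, a regulator of Gi and Gz, rose and none was called lower. It went from 108 CPM in both NSD libraries to 143 and 135 CPM in SD. Its log2 fold change was 0.37 ± 0.07 (s.e.) and its edgeR adjusted p 0.0397. With the block, 3 were called higher (Rgs17, Rgs20 and Rgs16) and 2 lower (Rgs14 and Rgs11), and DESeq2 called 3 higher and 1 lower. Rgs14, a regulator known for its high level in area CA2, was at 54.5 and 56.7 CPM in NSD and 45.2 and 46.2 CPM in SD (log2 fold change -0.28, edgeR adjusted p = 0.00565 with the block and 0.0583 without). Rgs11 was at 5.63 and 3.87 CPM in NSD and 2.57 and 1.25 CPM in SD (log2 fold change -1.31, edgeR adjusted p = 0.0724 without the block and 0.000246 with it). The Gq subunit genes Gnaq (-0.00) and Gna11 (0.04) were not called, and the median of the list was -0.00. Rgs17 did not keep its call in 5 of the 11 alternative fits, among them those without NSD 1 (0.40, edgeR adjusted p = 0.0566) and without SD 1 (0.32, 0.0677).

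Ptgs2 (ENSMUSG00000032487, chromosome 1, 149975782 to 149983978, plus strand) codes for cyclooxygenase-2, the inducible enzyme that starts prostaglandin synthesis. It was counted at 8.28 CPM in NSD 1, 9.62 CPM in NSD 2, 7.17 CPM in SD 1 and 8.38 CPM in SD 2. The groups overlapped narrowly, SD 2 lying above NSD 1, and both batches gave a lower value in SD (-0.21 and -0.20). The log2 fold change was -0.20 ± 0.13 (s.e.), with a 95% interval of -0.51 to 0.10 and an edgeR adjusted p of 0.478. It was -0.09 without NSD 2 and without SD 1, and -0.30 without SD 2. Exons of Ptgs2 share 476 bases with the opposite-strand gene Ptgs2os, whose count was 5.12% of that of Ptgs2, and whether the counting used strand is not given in the sources used here.

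Of 16 other genes of prostaglandin synthesis and reception, none was called by edgeR without the block, while 2 had an unadjusted p under 0.05. With the block, 2 were called lower, the prostaglandin E receptor Ptger1 and the prostaglandin D synthase Hpgds, and DESeq2 called 1 lower. The shares called lower were 8.47% of all genes and 3.29% of protein-coding genes with the block, and 6.03% of all genes by DESeq2. Ptger1 was at 2.98 and 2.5 CPM in NSD and 1.77 and 0.973 CPM in SD, with both SD libraries lower (log2 fold change -0.999, edgeR adjusted p = 0.114 without the block and 0.00602 with it). Hpgds is best known from mast cells, microglia and macrophages. It was at 5.37 and 4.16 CPM in NSD and 4.18 and 2.6 CPM in SD, which overlap. Endothelial markers were lower in SD as well. All 8 had a log2 fold change below 0 (from -1.35 to -0.53, median -0.86), their summed level was 46.1 and 66.1 CPM in NSD against 37.4 and 24.4 CPM in SD, and 6 were called lower with the block, 4 by DESeq2 and 0 by edgeR without the block (7 had an unadjusted p under 0.05). The log2 differences of these markers ran from -0.67 (Tie1) to 0.13 (Pecam1) within batch 1. Within batch 2 they ran from -2.19 (Slco1a4) to -1.06 (Cldn5). Endothelial cells are among the cells that make Ptgs2 and prostaglandins, and the part of these markers in the values of the pathway was not tested. The 5 microglia markers summed to 71.9 and 56.5 CPM in NSD and 71.5 and 54.8 CPM in SD, with a median of -0.02.

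Nrn1 (ENSMUSG00000039114, chromosome 13, 36909335 to 36919105, minus strand) codes for neuritin, a membrane-anchored protein that promotes neurite growth and synapse stability. It was counted at 61.5 CPM in NSD 1, 61.2 CPM in NSD 2, 58.2 CPM in SD 1 and 60.4 CPM in SD 2. The SD libraries were lower by little, and the log2 fold change of -0.05 had a 95% interval of -0.20 to 0.10 (edgeR adjusted p = 0.765). Exons of Nrn1 share 501 bases with Fars2 on the opposite strand, whose count was 12.4% of that of Nrn1. The paralog Nrn1l was nearly absent, at 0.0603 to 0.217 CPM.

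Inhba (ENSMUSG00000041324, chromosome 13, 16186436 to 16206206, plus strand) codes for the subunit of activin A, a secreted protein of the TGF-β family that is known to protect neurons and to strengthen synapses. It was counted at 9.23 CPM in NSD 1, 8.43 CPM in NSD 2, 9.95 CPM in SD 1 and 9.96 CPM in SD 2. The SD libraries were both above the NSD libraries and nearly equal to each other. The log2 fold change was 0.17 ± 0.11 (s.e.), with a 95% interval of -0.07 to 0.42, and was not called (edgeR adjusted p = 0.448). It ran from 0.11 without NSD 2 to 0.27 without NSD 1. The opposite-strand gene 4933412O06Rik shares 201 exon bases with Inhba and had 11.3% of its count.

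Among 14 further genes of activin signaling that were tested, 1 rose. It was Acvr1c, which codes for the type I receptor ALK7, at 14.4 and 12.9 CPM in NSD and 21.6 and 17.9 CPM in SD, a log2 fold change of 0.54 ± 0.11 (s.e., edgeR adjusted p = 0.0476). Both SD libraries were above both NSD libraries. The call was kept with the block and by DESeq2, and was lost in 5 of the 11 alternative fits, among them those without NSD 2 (0.46, edgeR adjusted p = 0.087) and without SD 1 (0.40, 0.0706). The type II receptor Acvr2a, at 44.9 and 45.3 CPM in NSD and 50.7 and 51.0 CPM in SD, was not called (0.17, edgeR adjusted p = 0.183), nor were Acvr1b, Smad2, Smad3 or Smad4. Acvr1 ran the other way, at 32.6 and 31.8 CPM in NSD and 27 and 28.7 CPM in SD. It was not called either (-0.21, edgeR adjusted p = 0.165).

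Levels between genes are compared per kilobase of exon, with the exon length of GENCODE M39. The counts were made on Ensembl release 110, where gene bounds are not always the same. The lower bound in the deposited table lies 1073 bases above that of M39 for Nptx1, 588 for Ptgs2 and 565 for Plk2. The end of Nptx2 also differs, while Arc, Homer1 and Rgs2 have the same bounds. What this changes in the order of levels was not tested. In NSD the order from the highest was Plk2, Arc, Nptx1, Nrn1, Homer1, Nptx2, Rgs2, Plk3, Ptgs2 and Inhba. Only Plk2 (63.3 and 74.5 CPM per kb) and Arc (57 and 66.8 CPM per kb) overlapped there as neighbours. In SD Arc stood first at 111 and 122 CPM per kb, above Plk2 at 58 and 60.3 CPM per kb without overlap. Homer1, at 21.1 and 22.8 CPM per kb, was next above Nrn1, with which it overlapped, and Ptgs2 overlapped with Inhba. Over all 4 libraries, Arc, at a mean of 89.2 CPM per kb, was above 99.0% of the protein-coding genes tested, Plk2 above 98.2% and Nptx1 above 96.9%, while Ptgs2 at 1.63 and Inhba at 1.32 CPM per kb were above 43.3% and 39.4%. Since exon lengths are those of all annotated transcripts merged, the level of a gene such as Homer1 with long alternative exons is understated.

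**Figure D3:**
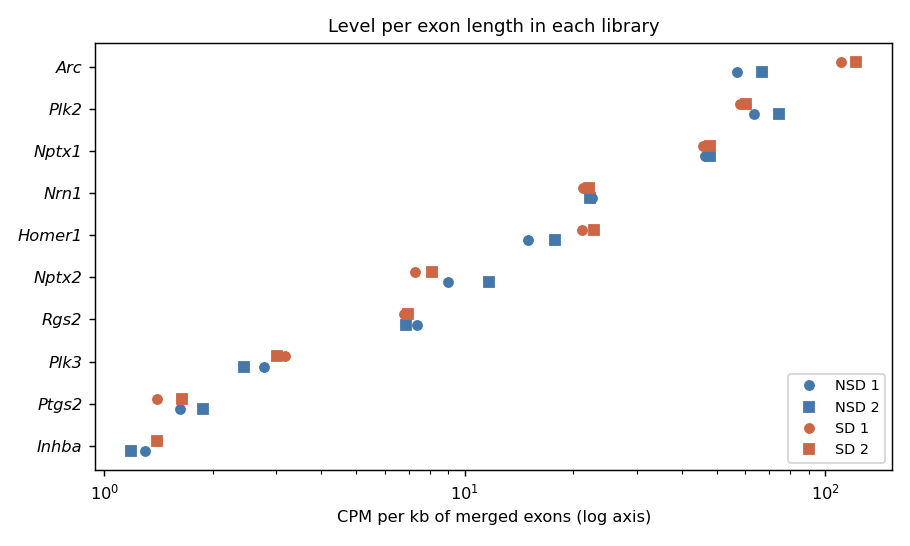
Level of each effector gene per kilobase of merged exons, on a log axis, in each NSD library (blue, lower row of each gene) and each SD library (orange, upper row), with circles for batch 1 and squares for batch 2. Arc runs from 57 CPM per kb in NSD 1 to 122 CPM per kb in SD 2, and Inhba, the lowest, from 1.19 to 1.4 CPM per kb.

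A pair of further lists places the 10 genes among other activity-induced genes. Of 26 other effectors, Sik1, a salt-inducible kinase that restrains CREB coactivators, and Trib1, a pseudokinase, rose, and Penk, the precursor of enkephalins, fell. Sik1 went from 21.8 and 21.7 CPM to 31.7 and 33.3 CPM (log2 fold change 0.58, edgeR adjusted p = 0.0328) and Penk from 17.7 and 19.0 CPM to 12.8 and 13.1 CPM (-0.50, 0.0379). Penk lost its call in 3 of the 11 alternative fits, among them that without NSD 2 (-0.45, edgeR adjusted p = 0.0562), and Sik1 and Trib1 each in 1. With the block 5 were called higher (Sik1, Trib1, Gpr3, Adcyap1 and Vgf) and 1 lower, beside 2.99% and 8.47% of all genes, and the median was 0.10. Of these, Gpr3 codes for a receptor that raises cAMP, Adcyap1 for the neuropeptide PACAP and Vgf for a secreted neuropeptide precursor. Bdnf, the growth factor most often read out with Arc, was at 19.8 and 22.8 CPM in NSD and 20.0 and 21.1 CPM in SD (-0.05, edgeR adjusted p = 0.833).

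Of 18 activity-induced transcription factors, Fosl2 (0.51, edgeR adjusted p = 0.04) and Nr4a1 (0.40, 0.0472) rose. With the block 6 were called higher (Fosl2, Nr4a1, Fosb, Egr1, Egr4 and Nr4a2) and Npas4 was called lower (edgeR adjusted p = 0.049), beside 2.99% and 8.47% of all genes. The median log2 fold change of the list was 0.28. In this list 9 of 18 genes had both SD libraries above both NSD libraries, as had 4 of the 10 effector genes, beside 22% of all genes and 26.5% of protein-coding genes. Fosl2 and Nr4a1 were each called in 7 of the 11 alternative fits. These include the main fit without its fold change threshold, where a called gene stays called. Without NSD 1 neither was called (log2 fold changes of 0.41 and 0.32). The difference between the lists was not tested.

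**Figure D4:**
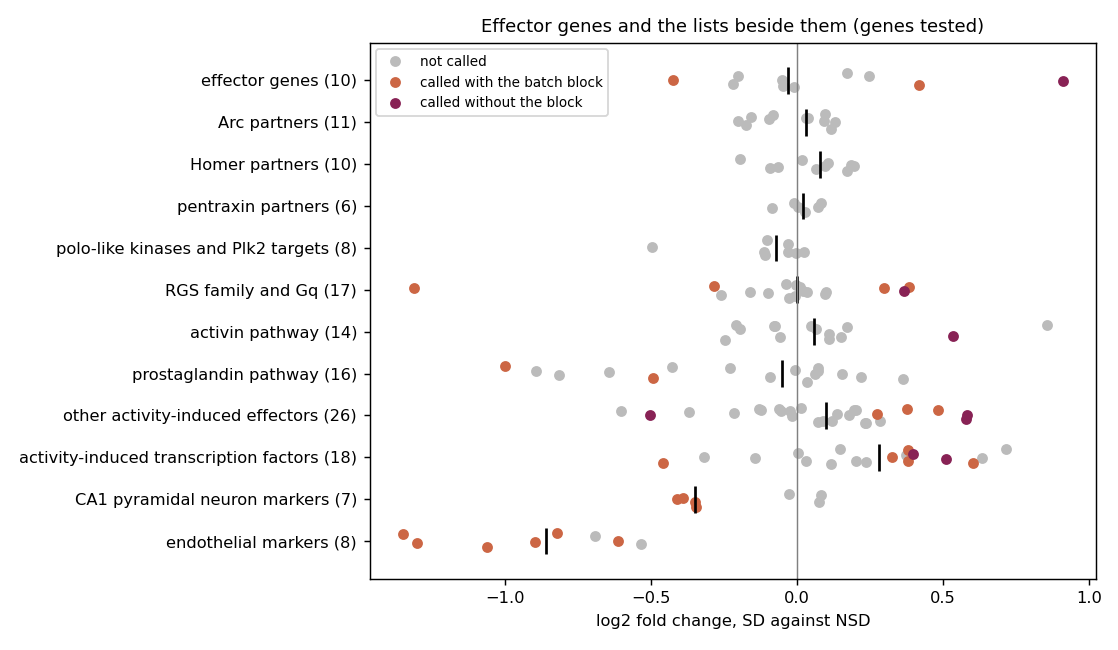
Log2 fold change of SD against NSD for each tested gene of 12 lists, with the number tested in brackets and a bar at the list's median. Dark points are called without the batch block, orange points with the block only, and grey points by neither fit. The effector genes spread from -0.42 to 0.91 around a median of -0.03, the transcription factors have a median of 0.28 and the endothelial markers lie between -1.35 and -0.53.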

How the data were processed

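The RNA bound to HA-tagged ribosomes was made into libraries with a stranded total RNA kit after ribosomal RNA depletion. The authors trimmed low-quality bases from the 3′ ends, aligned the reads with STAR 2.7.8a to mm39 (GRCm39) and quantified the genes of Ensembl release 110 with Partek's expectation-maximization model. They deposited these estimated counts unnormalized, and for 55.6% of genes some values are fractional. The study's own tests used DESeq2. Here the counts were rounded and filtered (more than 5 in each library, 22338 genes), and edgeR 4.0.16 in R 4.3.3 was run with TMM factors, a quasi-likelihood test of SD against NSD and Benjamini-Hochberg adjustment over the genes kept. Per-library log2 values used a prior count of 2. Exon lengths and overlaps came from GENCODE M39.

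Replicate numbers equal the batch numbers in the labels and so pair each NSD library with an SD library. Within such pairs, deviations from the group means correlated at 0.178 over 22338 genes. Libraries of a group were compared to look for a library deposited in duplicate, and they differed by more than counting error (chi-square per degree of freedom of 85.2 in NSD and 48.2 in SD). The fit with the batch as a block and DESeq2 1.42.0 are alternatives, with DESeq2 size factors, other count filters, protein-coding genes only, no fold change threshold, a prior count of 0.5 and each library left out in turn. Dropping the fold change threshold leaves the p-values and log2 fold changes of the main fit as they are. A gene called in the main fit therefore stays called there, and no sign can change. The edgeR fit was tested on simulated counts. The effector genes, the lists beside them and the tests were chosen with earlier results of these data known. Besides the effector genes, the text names Fos, Rpl22, the called or lowest-p genes of each list and the 3 genes nearest to Arc, and some of these results and sequences are not reported here. Acvr2a, Acvr1, Acvr1b, Smad2 to Smad4, Homer2, Homer3, Gnaq, Gna11, Plk1, Bdnf, Rgs16, Adcyap1, Vgf, Egr1, Nr4a2, Npas4 and the markers Camk2a, Slc17a7, Mbp, Gad1, Pecam1 and Cldn5 were added after their values were seen. The labels name dorsal hippocampus and a genotype where the study's methods name microdissected CA1 and viral vectors, and the methods are followed here.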

Additional observations from a re-analysis of the deposited data

How the results depend on the processing

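Over all genes, 172 were called higher and 520 lower. These counts were 668 and 1891 with the batch as a block, 669 and 1294 by DESeq2, 50 and 80 without a count filter, 1 and 0 with filterByExpr (838 and 2650 at an unadjusted p under 0.05 by edgeR) and 51 and 39 for protein-coding genes only, and ran from 144 to 321 and from 87 to 1953 with 1 library left out. With a library left out, the lone library of its group is assumed to vary like the other group. Of the effector genes, 1 was called higher and 0 lower (3 had an unadjusted p under 0.05 by edgeR). The counts were 2 and 1 with the block and by DESeq2, 0 higher with filterByExpr (Arc, adjusted p = 0.0628), and 1 to 2 higher and 0 to 1 lower with 1 library left out. Beyond Homer1 and Nptx2, the block changed no call of an effector gene. Of 110 values of the 10 log2 fold changes under alternatives, 7 had another sign, all of genes never called. Nptx1 went from -0.01 to 0.01 by DESeq2, 0.01 with DESeq2 size factors and 0.02 without a count filter, and ran from -0.02 to 0.02 with 1 library left out, while Rgs2 ran from -0.10 to 0.03. Count ratios with 1 library left out, an alternative chosen after seeing the data, ran from -0.57 to -0.24 for Nptx2 to Nptx1, -0.68 to -0.26 for Plk2 to Plk3, 0.15 to 0.48 for Homer1 to Homer2 and 0.39 to 0.87 for Homer1 to Homer3. A prior count of 0.5 moved none of the 20 within-batch differences beyond the spread of the NSD libraries. With counts of 1151 or more for each of these genes, it could hardly have moved them. Calls were counted for whole lists in each alternative. Of 396 such counts, 53 were classed as moved from the main fit and 343 as the same. Log2 fold changes under alternatives were taken for 41 genes picked from the lists by the naming rule, not for every list gene. Among these, leaving out 1 library turned the sign of Fos (-0.50 to 0.39), Rpl22 (-0.53 to 0.18), Gria2 (-0.14 to 0.01), Gfap (-0.09 to 0.22), P2ry12 (-0.38 to 0.03) and C1qa (-0.29 to 0.18), none of them called without or with the block, with the higher value of Fos and Rpl22 being that without NSD 2.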
